A study of Mus musculus with 16 samples.

Results

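The miR-200 family is a set of microRNAs (miRNAs, short RNAs that lower the output of matching mRNAs) typical of epithelial cells. Its rows were found by name in the deposited table of small RNAs: both arms of miR-200b, miR-200a and miR-141, and the 3p arms of miR-429 and miR-200c, 8 of 1264 rows in all and 8 of 677 miRNA rows. One more arm of the family, miR-200c-5p, has a row with 0 to 3 reads a library at days 0 and 4 and no value later. It is not among the members chosen and is in none of the sums below. All 8 had a value in every library and passed the filter on low values at every day. The samples were primary mouse tracheal epithelial cultures (MTECs) on porous membranes, taken on the day they were lifted to an air-liquid interface (day 0) and at days 4, 7 and 14, during which such cultures form multiciliated cells. Wild type cultures (WT) were compared with cultures from mice lacking p73 in the whole body (KO), a transcription factor of the p53 family, so each day had a WT and a KO group under the same culture conditions. Each of the 8 groups held 2 libraries, numbered 2 and 3, which the series calls independent biological replicates. The labels do not state strain, age or sex, the knockout allele beyond its name, or whether a replicate came from 1 animal or a pool. Small RNA libraries do not measure p73 mRNA, so the genotype labels were not checked against it.

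The family lies at 2 places in the mouse genome and carries 2 seeds. The seed, bases 2 to 8 from the 5′ end, is the part of a miRNA that pairs with its targets, so members with the same seed share most predicted targets, whichever place they come from. In epithelial cells the family is known for holding down ZEB1 and ZEB2, repressors of E-cadherin that drive epithelial-mesenchymal transition, and ZEB1 and ZEB2 in turn repress the miRNA genes. The p53 family members p63 and p73 have been reported to act on transcription of miR-200 genes in other epithelial cells. Whether the family differs when p73 is absent from airway cultures, and whether its 2 places and its 2 seeds move together as the cultures differentiate, are the questions the design allows.

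The 3p arms are the main products and are shown first because the results divide along their seeds, which are in capitals. Sequences are the RefSeq mature miRNAs of build GRCm38.p6, and their positions equalled those in the deposited table for 8 of 8 rows. The group with seed AAUACUG holds miR-200b, miR-429 and miR-200c.
mmu-miR-200b-3p: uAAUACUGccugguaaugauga
mmu-miR-429-3p: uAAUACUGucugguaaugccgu
mmu-miR-200c-3p: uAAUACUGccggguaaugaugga
The group with seed AACACUG holds miR-200a and miR-141.
mmu-miR-200a-3p: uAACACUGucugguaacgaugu
mmu-miR-141-3p: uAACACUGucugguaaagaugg
The 5p arms, cut from the other side of the hairpin, have seeds unlike those of the 3p arms. miR-200b-5p and miR-200a-5p share the seed AUCUUAC, and miR-141-5p has AUCUUCC.
mmu-miR-200b-5p: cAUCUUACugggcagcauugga
mmu-miR-200a-5p: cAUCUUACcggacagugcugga
mmu-miR-141-5p: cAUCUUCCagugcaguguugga

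Between the seeds the difference is the single base U4C, counted from 1 at the 5′ end of miR-200b-3p against miR-200a-3p, so that the matching target sites read CAGUAUU and CAGUGUU. Each chromosome 4 member except miR-429 has a close copy with its seed on chromosome 6. Over 22 compared bases miR-200b-3p and miR-200c-3p differ by U11G and A22G, and miR-200a-3p and miR-141-3p by C17A and U22G. Across seeds there were 4 substitutions between miR-200b-3p and miR-200a-3p, and 4 between miR-200c-3p and miR-141-3p. miR-429-3p, on chromosome 4 itself, shares the seed of miR-200b-3p and differs from it by 4 substitutions outside the seed. No source used here says how reads matching more than 1 copy were shared out, so the division of reads within a seed group is less certain than that between seed groups.

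The chromosome 4 cluster holds the hairpins of miR-200b, miR-200a and miR-429 on the minus strand within 1846 bases (chr4:156053905-156055750). All 3 hairpins lie in introns of the protein-coding gene Ttll10, and that of miR-429 also lies in an exon of the overlapping transcript Gm13648. The mature miR-200b-3p is at chr4:156055685-156055706, miR-200a-3p at chr4:156054911-156054932 and miR-429-3p at chr4:156053916-156053937. The chromosome 6 cluster holds miR-200c and miR-141 on the minus strand within 477 bases (chr6:124717914-124718390), in introns of the antisense RNA gene Gm15884. The mature miR-200c-3p is at chr6:124718324-124718346 and miR-141-3p at chr6:124717917-124717938. Each cluster therefore carries both seeds.

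Libraries held 197497 to 1777273 reads, and the shallowest was WT day 0 replicate 2. Levels below are the deposited normalised reads, moved by 1 factor for each day so that days can be set side by side. The family made up 1.46 to 4.21% of the reads of a library. That share is pulled down by miR-92b-3p, which took 1.11 to 2.3% of reads at day 0 and 47.3 to 55.1% at day 14. With miR-92b-3p left out of the total the family took 2.44 to 4.58%. Rows of fibroblast, blood and endothelial miRNAs were at or near 0, except that of the fibroblast miRNA miR-143-3p. Of 8 listed mesenchymal markers 5 had a row. miR-143-3p was highest at 7 to 51 reads where present, miR-214-3p had at most 8 reads, and miR-145a-5p, miR-145a-3p and miR-199a-3p had at most 3. The blood markers with a row, miR-451a and miR-142-5p, had at most 5 and 2 reads, and the endothelial markers with a row, miR-126a-3p and miR-126a-5p, at most 3 and 2. miR-205-5p, a miRNA of basal and stratified epithelium, was at 7282 to 21595 normalised reads.

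**Figure D1:**
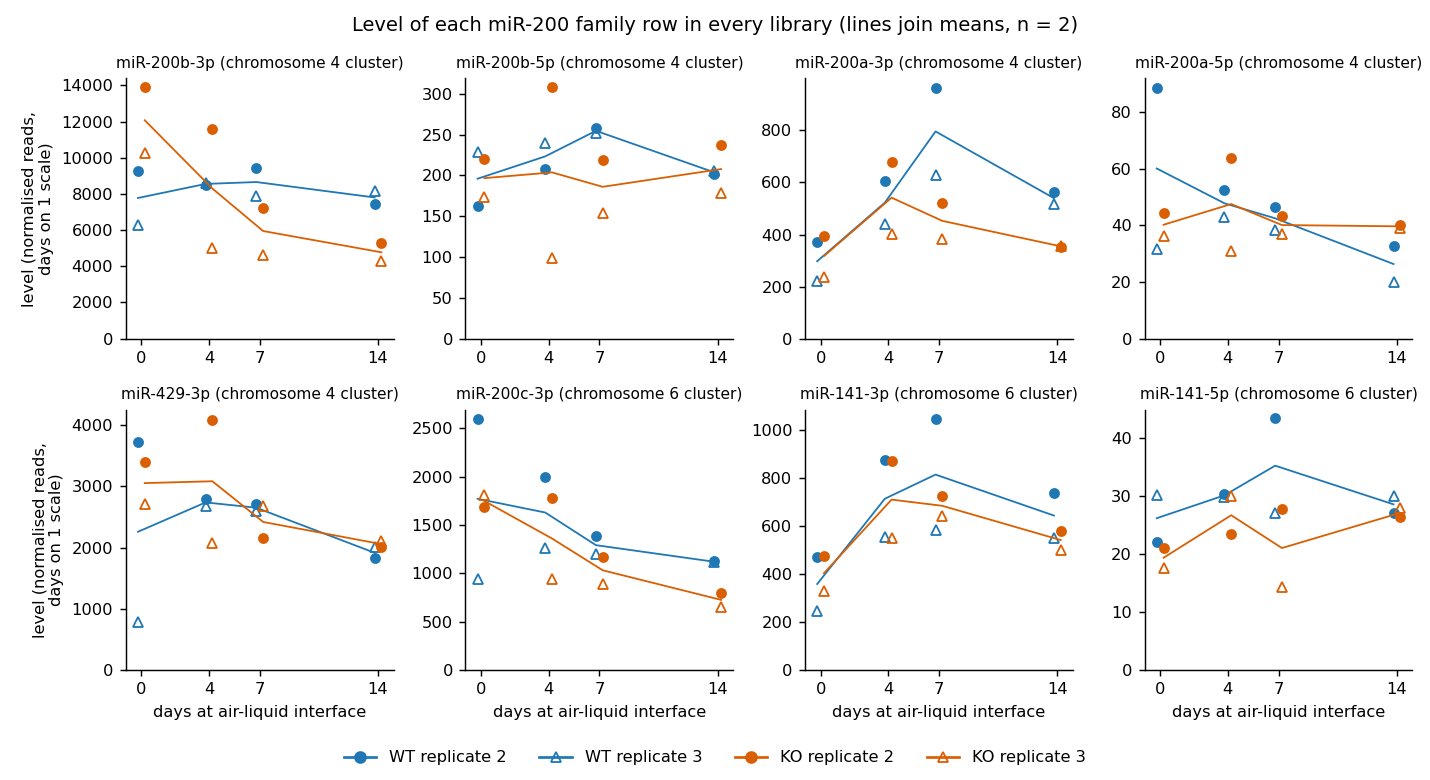
Level of each of the 8 rows (normalised reads, days on 1 scale, axes from 0) against days at the air-liquid interface, with WT in blue and KO in orange, replicate 2 as filled circles, replicate 3 as open triangles and lines through the means (n = 2). miR-200a-3p and miR-141-3p lie higher in WT at days 4 to 14 than at day 0, while miR-200b-3p and miR-200c-3p in KO lie lower at day 14 than at day 0.

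The family was dominated by one miRNA. miR-200b-3p gave a mean of 60.0% of the family's normalised reads, 49.2 to 71.6% in single libraries, and ranked 14 of the 165 miRNAs with a value in every library. miR-429-3p gave 19.3% and miR-200c-3p 9.99%, so that the AAUACUG seed held most of the family in every library. The AACACUG members were smaller, with 4.82% for miR-141-3p and 3.72% for miR-200a-3p. The 5p arms gave 1.66% (miR-200b-5p), 0.334% (miR-200a-5p) and 0.219% (miR-141-5p), the last 2 from 12 to 90 and 11 to 71 reads a library. Small RNA ligation favours some sequences over others, so shares of different miRNAs are shares of reads.

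The proportion of the seed groups differed between day 0 and the later days, in both genotypes and in both clusters. Summed miR-200a-3p and miR-141-3p stood to summed miR-200b-3p, miR-200c-3p and miR-429-3p at 0.0385 to 0.0584 in the 4 libraries of day 0. By day 4 the same ratio was 0.079 to 0.118, by day 7 it was 0.104 to 0.148, and by day 14 it was 0.0946 to 0.125. All 12 later libraries lay above every library of day 0, and the median was 2.0, 2.43 and 2.38 times that of day 0 at the 3 later days. These ratios are taken within a library, so no scaling between libraries or days enters them, and no test was made of them.

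The libraries of WT and KO overlapped in this ratio at every later day. In WT the seed ratio began at 0.0562 ± 0.00311 (SD, n = 2) and was then 0.0952 ± 0.0229 (day 4), 0.126 ± 0.0313 (day 7) and 0.11 ± 0.0215 (day 14). In KO it began at 0.0422 ± 0.00528 (SD, n = 2) and was then 0.104 ± 0.021 (day 4), 0.121 ± 0.00466 (day 7) and 0.119 ± 0.00461 (day 14). Day 0 was the one day on which both KO libraries lay below both WT libraries.

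Day 0 was also the lowest day inside each cluster, where both seeds come from neighbouring hairpins on 1 strand. On chromosome 4, miR-200a-3p stood to miR-200b-3p at 0.0233 to 0.0401 on day 0 and then at 0.0509 to 0.0802 (day 4), 0.072 to 0.102 (day 7) and 0.0633 to 0.0834 (day 14). On chromosome 6, miR-141-3p stood to miR-200c-3p at 0.181 to 0.283 on day 0 and then at 0.437 to 0.582 (day 4), 0.486 to 0.756 (day 7) and 0.494 to 0.771 (day 14). In both clusters every later library was above every day 0 library. The lowest count behind these ratios at day 0 was 155 reads of miR-200a-3p and 170 of miR-141-3p, both in WT replicate 3.

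The ratio between the clusters did not separate the days. The 5 chromosome 4 members together stood to the 3 chromosome 6 members at 4.41 to 8.24 on day 0 and then at 4.19 to 6.51 (day 4), 5.12 to 6.29 (day 7) and 5.33 to 6.44 (day 14), and no later library was above the highest of day 0. Nor did ratios between copies with the same seed on different chromosomes. Over all 16 libraries miR-200a-3p to miR-141-3p was 0.597 to 1.08, with medians of later days at 0.908 to 1.01 times that of day 0, and miR-200b-3p to miR-200c-3p was 3.57 to 8.26, with medians at 0.963 to 1.08 times. In both ratios the genotypes overlapped at days 0 and 4, and both KO libraries lay below both WT libraries at days 7 and 14. For miR-200a-3p to miR-141-3p KO was at 0.719 and 0.597 against 0.922 and 1.08 in WT at day 7. At day 14 it was at 0.609 and 0.71 against 0.765 and 0.939. For miR-200b-3p to miR-200c-3p the day 14 values were close, 6.6 and 6.57 against 6.62 and 7.33. These differences were not tested. Within the AAUACUG seed, miR-429-3p to miR-200b-3p was 0.125 to 0.403 at day 0 and reached 0.577 later. At each later day 1 library, KO replicate 3, was above the day 0 range. Both KO libraries were above both WT libraries at day 4 (0.354 and 0.413 against 0.33 and 0.311). The same order held at day 14 (0.381 and 0.492 against 0.245 and 0.245), and the genotypes overlapped at days 0 and 7.

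**Figure D2:**
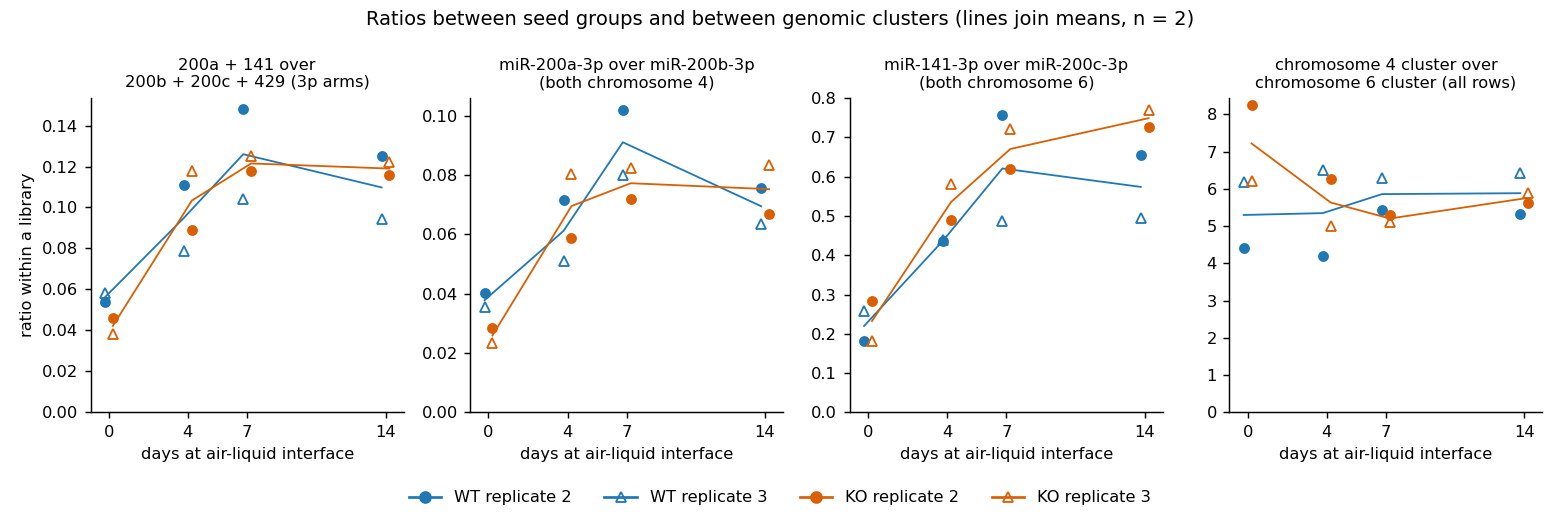
Ratios within each library (no unit, axes from 0) against days at the air-liquid interface, for the 2 seed groups, for the 2 seeds inside each cluster and for the 2 clusters, with symbols for WT and KO replicates and lines through the means (n = 2). In the 3 left panels all 12 later libraries lie above the 4 libraries of day 0; in the right panel they do not.

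Across the 16 libraries the same division appeared as covariation of log2 levels. Pearson's r was 0.91 between miR-200a-3p and miR-141-3p, and 0.83 between miR-200b-3p and miR-200c-3p, pairs that share a seed but not a chromosome. It was 0.29 between miR-200a-3p and miR-200b-3p and 0.13 between miR-141-3p and miR-200c-3p, pairs that share a cluster but not a seed. miR-429-3p was intermediate, at 0.52 with miR-200b-3p, 0.61 with miR-200c-3p, 0.44 with miR-200a-3p and 0.51 with miR-141-3p. The points share day, library and normalisation, and reads that fit both copies of a seed would raise the first 2 values. These correlations are descriptions only.

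Several other measures moved with day as the seed ratio did. The summed level of the 7 multiciliated markers (miR-34b, miR-34c and miR-449 arms, which accompany the formation of many cilia) was 1152 to 1409 on day 0, then 5521 to 10816 (day 4), 11207 to 16155 (day 7) and 9351 to 14820 (day 14). The share of miR-92b-3p was higher on later days, as given above, and the 4 libraries of day 0, at 197497 to 684413 reads, included the 2 shallowest. The part of each in the seed ratio was not tested. In bulk cultures a change in the number of cells of a type and a change in the RNA of each cell cannot be told apart.

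In WT cultures both AACACUG members were higher in every library of the later days than at day 0, and the AAUACUG members overlapped day 0. miR-200a-3p was at 372 and 223 normalised reads on day 0 (replicates 2 and 3), then 606 and 439 (day 4), 963 and 630 (day 7) and 563 and 516 (day 14). Both libraries of each later day were above both of day 0, an order found in 16% of all rows at day 4, 29% at day 7 and 26.2% at day 14. Its rise to day 7 was a log2 of 1.43 (SE 0.37, adjusted p = 0.0297, limma with Benjamini-Hochberg adjustment over 297 rows), and it was the only one of 8 members called there, where 7.07% of all rows were called and 3.37% as higher. That call ended without WT day 0 replicate 3 (log2 1.06, adjusted p = 0.125), without WT day 7 replicate 2 (log2 1.12, adjusted p = 0.213), when the 4 libraries compared were fitted alone (adjusted p = 0.119), and with library totals (log2 0.65, adjusted p = 0.189), a scaling that moved the median of all rows from -0.1 to -0.87.

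miR-141-3p was also lowest at day 0 and highest on average at day 7 in WT, without passing the limma test, which did not pair replicate numbers across days. It was at 470 and 245 normalised reads on day 0, then 873 and 553 (day 4), 1045 and 583 (day 7) and 736 and 550 (day 14), again with no overlap between a later day and day 0. Its log2 difference from day 0 was 1.03 (SE 0.39, adjusted p = 0.224) at day 4, 1.2 (SE 0.39, adjusted p = 0.0684) at day 7 and 0.9 (SE 0.39, adjusted p = 0.143) at day 14 in limma. Without WT day 0 replicate 2 it was called at day 7 (log2 1.67, adjusted p = 0.0247) and day 14 (log2 1.37, adjusted p = 0.0473).

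Replicate numbers ran through the days of a genotype, and a fit with the replicate as a block within genotype called more of these differences. With the block, limma passed miR-141-3p in WT on day 4 (adjusted p = 0.0297, with 5.13% of all rows called), day 7 (adjusted p = 0.00478, with 14.1%) and day 14 (adjusted p = 0.0188, with 22.6%). miR-200a-3p then passed on day 14 as well (log2 0.9, adjusted p = 0.0272, against 0.117 without the block). Without the block no member was called in WT at day 4, where 2.56% of all rows were called, or at day 14, where 13.6% were. Members with an unadjusted limma p under 0.05 numbered 2 at day 4 and 3 at day 14, beside 41 of 312 and 82 of 279 rows. On recovered reads edgeR called no member on either day, and DESeq2 called 1, miR-200a-3p at day 14 (adjusted p = 0.0481, with 22.4% of rows called). At day 7 DESeq2 called miR-141-3p in WT (log2 1.24, adjusted p = 0.0343), beside 23 of 193 rows, and edgeR did not call it.

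None of the AAUACUG members of WT was called against day 0. miR-200b-3p was at 9266 and 6282 normalised reads on day 0, then 8490 and 8613 (day 4), 9445 and 7868 (day 7) and 7450 and 8157 (day 14). Its log2 difference from day 0 was 0.16, 0.18 and 0.03 (95% intervals -0.64 to 0.96, -0.63 to 0.98 and -0.77 to 0.83). The intervals exclude neither a rise nor a fall of 0.6 on the log2 scale.

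The other AAUACUG members, miR-200c-3p and miR-429-3p, differed widely between the WT day 0 libraries. miR-200c-3p was at 2599 and 944 normalised reads on day 0, then 1996 and 1262 (day 4), 1383 and 1200 (day 7) and 1125 and 1113 (day 14). miR-429-3p was at 3730 and 786 on day 0, then 2799 and 2678 (day 4), 2713 and 2590 (day 7) and 1827 and 2001 (day 14). The day 0 libraries of miR-429-3p were thus 4.75-fold apart, while those of each later day lay close together. Leaving out WT day 0 replicate 2 turned miR-429-3p into a called rise from day 0 at day 4 (log2 1.8), day 7 (log2 1.75) and day 14 (log2 1.28), and the deposited values give no means of choosing between the 2 libraries.

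In KO cultures 2 of the AAUACUG members fell by day 14. miR-200b-3p was at 13901 and 10241 normalised reads on day 0, then 11570 and 5023 (day 4), 7249 and 4649 (day 7) and 5274 and 4271 (day 14). Both libraries of days 7 and 14 were below both of day 0, as in 36% and 38.7% of all rows. It fell by day 14 (log2 -1.33, SE 0.38, adjusted p = 0.0165, limma over 279 rows), and miR-200c-3p fell with it (log2 -1.28, SE 0.42, adjusted p = 0.0344). These were 2 of 8 members, the most abundant product of each cluster, in a comparison where 28.3% of all rows were called and 17.2% as lower.

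miR-200c-3p in KO was at 1683 and 1815 normalised reads on day 0, then 1775 and 945 (day 4), 1173 and 888 (day 7) and 799 and 650 (day 14). It is a miRNA for which loss of expression is a known mark of mesenchymal change in tumour cells. Both its libraries at days 7 and 14 were below both at day 0. miR-429-3p, the third member with this seed, went from 3392 and 2717 at day 0 to 2009 and 2102 at day 14 in KO, a log2 of -0.56 (SE 0.51, adjusted p = 0.46, limma).

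The calls in KO at day 14 depended on scaling and on single libraries. With TMM factors over miRNAs the difference of miR-200b-3p was -0.85 (adjusted p = 0.0785) and that of miR-200c-3p -0.8 (adjusted p = 0.133) in limma, under a scaling that moved the median of all rows from -0.02 to 0.45. Without KO day 0 replicate 2, or without KO day 14 replicate 3, neither was called. miR-200b-3p alone was called without KO day 0 replicate 3 or KO day 14 replicate 2, and by edgeR on recovered reads.

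No fall was called for the AACACUG members of KO. miR-200a-3p was at 396 and 239 normalised reads on day 0, then 680 and 403 (day 4), 522 and 383 (day 7) and 354 and 356 (day 14). miR-141-3p was at 475 and 330 on day 0, then 869 and 550 (day 4), 726 and 641 (day 7) and 580 and 501 (day 14). Every later library of miR-141-3p lay above both of day 0, as in 19.6% (day 4), 26.3% (day 7) and 33.3% (day 14) of all rows, while those of miR-200a-3p overlapped day 0 from day 7 on. At day 14 their log2 differences from day 0 were 0.2 (95% interval -0.58 to 0.99) and 0.44 (95% interval -0.39 to 1.28).

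At KO days 4 and 7 limma called no member, where 3.53% and 10.1% of all rows were called. Members with an unadjusted limma p under 0.05 numbered 0 and 1, beside 50 of 312 and 76 of 297 rows. edgeR and DESeq2 called 0 members on both days. With the replicate block limma called 2 at day 7, beside 16.8% of all rows, miR-141-3p higher (log2 0.78, adjusted p = 0.0435) and miR-200b-3p lower (log2 -1.04, adjusted p = 0.0207, against 0.0981 without the block). The higher member carries the AACACUG seed and the lower one the AAUACUG seed.

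**Figure D3:**
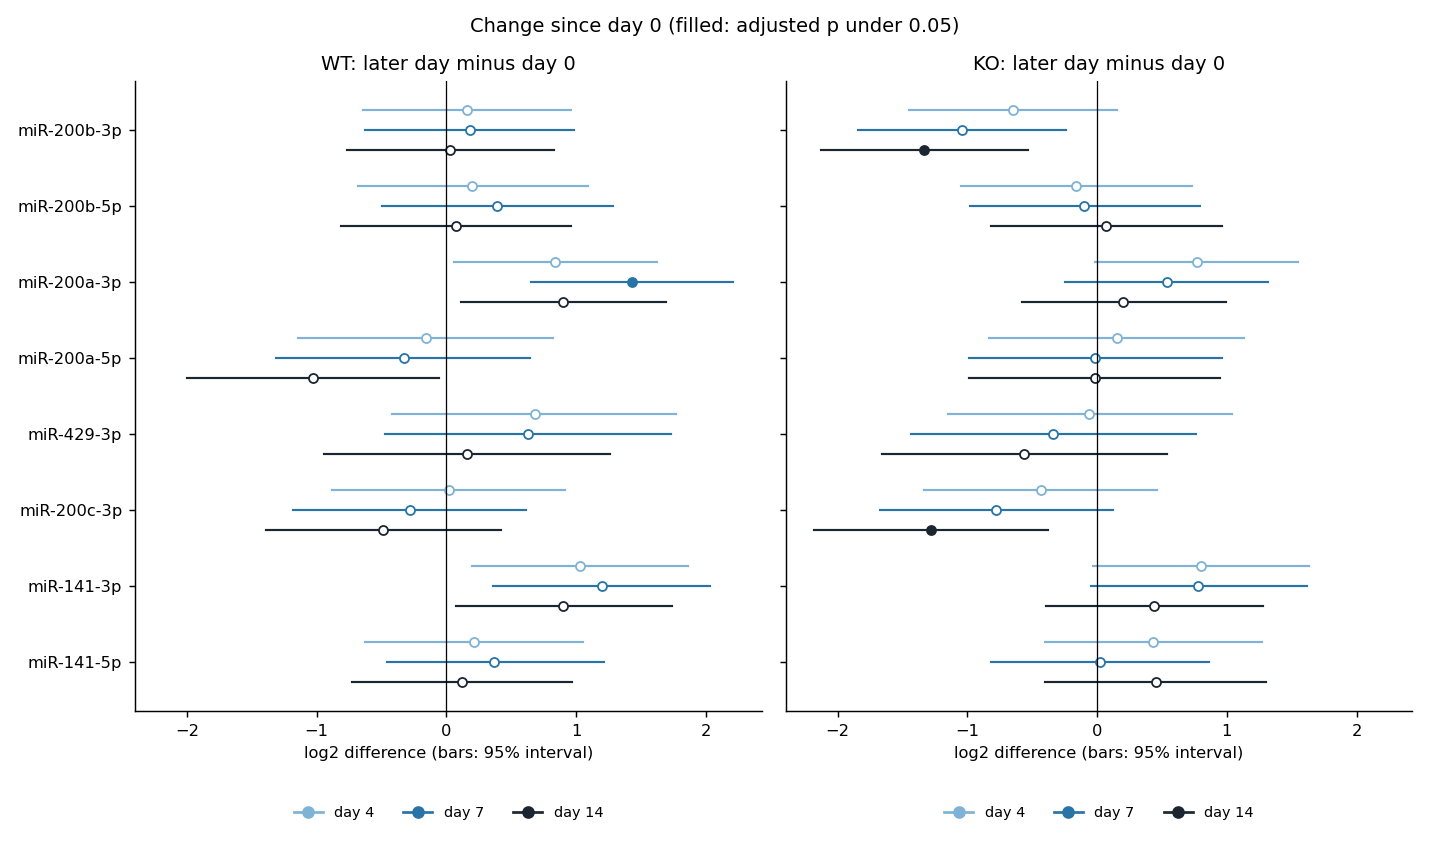
Log2 difference of each later day from day 0 (horizontal axis) for each member, WT left and KO right, with days 4, 7 and 14 from light to dark, points for the estimate, bars for the 95% interval, and filled points for an adjusted p under 0.05 (limma, 8 groups of n = 2). In both genotypes miR-200a-3p and miR-141-3p lie to the right of miR-200b-3p and miR-200c-3p at every later day.

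The 5p arms followed neither pattern and rest on few reads. miR-200b-5p was at 99.0 to 308 normalised reads, miR-200a-5p at 20.1 to 88.4 and miR-141-5p at 14.3 to 43.5 over all libraries, and none was called in any of the 14 comparisons. Without WT day 0 replicate 3, miR-200a-5p was called lower in WT at day 14 (log2 -1.76, adjusted p = 0.0188, limma), as it was with library totals (log2 -1.96, adjusted p = 0.00273), against -1.03 in the fit of all libraries. The 5p arm of miR-200b stood to its 3p arm at 0.0158 to 0.0364 at day 0 and 0.0252 to 0.0449 at day 14, with the 2 KO libraries of day 14 highest. That of miR-200a stood at 0.112 to 0.238 on day 0, then 0.0772 to 0.0979 (day 4), 0.0483 to 0.0961 (day 7) and 0.0388 to 0.113 (day 14). All libraries of days 4 and 7 lay below every day 0 library in the miR-200a arm ratio. In this ratio both KO libraries lay above both WT libraries at day 7 (0.0831 and 0.0961 against 0.0483 and 0.0611). The same order held at day 14 (0.113 and 0.11 against 0.0579 and 0.0388), and the genotypes overlapped at days 0 and 4. For miR-141 the ratio was 0.0443 to 0.124 at day 0 and 0.0223 to 0.0556 later.

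**Figure D4:**
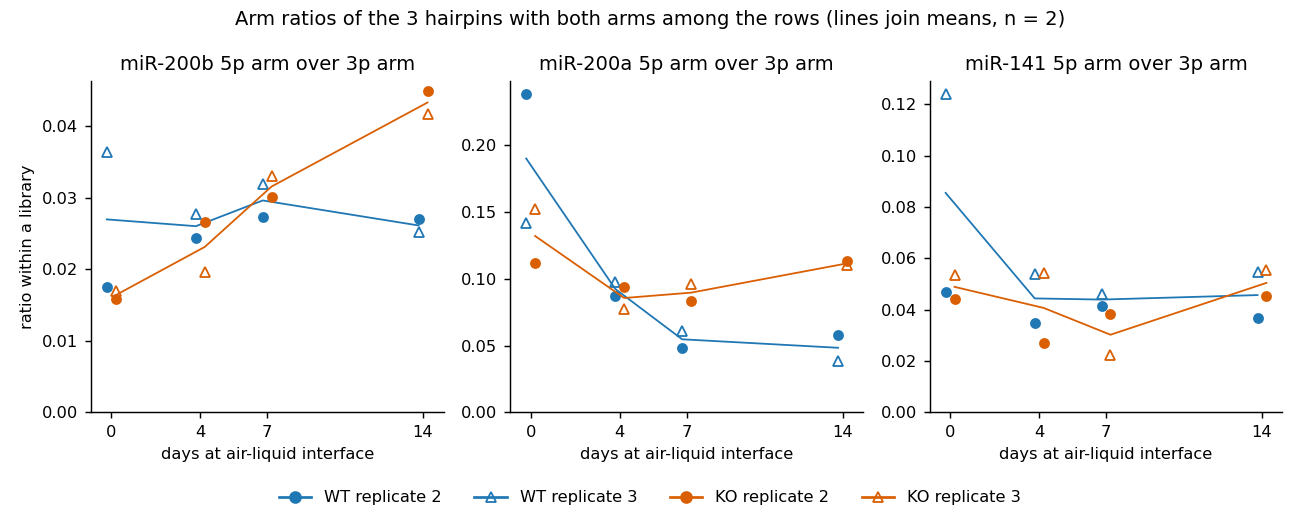
Ratio of the 5p to the 3p arm within each library (no unit, axes from 0) against days at the air-liquid interface for the 3 hairpins with both arms among the rows, with symbols for WT and KO replicates and lines through the means (n = 2). The miR-200a ratio is 0.112 to 0.238 at day 0 and at most 0.0979 at days 4 and 7.

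No member passed the test of KO against WT on any day or averaged over days. In limma 0 of 8 members were called at day 0 (0% of 342 rows called), day 4 (0.294% of 340), day 7 (0.623% of 321), day 14 (3.62% of 304) and averaged over days (2.57% of 272). An unadjusted limma p under 0.05 was reached by 1 member at day 7, miR-200a-3p, beside 17 of 321 rows. In the other 4 comparisons it was reached by 0 members. Over all rows it was reached there by 27 of 342 (day 0), 14 of 340 (day 4), 58 of 304 (day 14) and 46 of 272 (averaged). On recovered reads edgeR and DESeq2 called 0 members at days 0, 4 and 7 and averaged over days, and at day 14 edgeR called 3 and DESeq2 1. Leaving out WT day 0 replicate 2, the library with more miR-429-3p, made miR-429-3p a call at day 0 (log2 1.95, adjusted p = 0.0102, limma).

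Day 14 is where the tools differed. miR-200b-3p was at 7450 and 8157 normalised reads in WT and 5274 and 4271 in KO, a log2 of -0.72 (95% interval -1.52 to 0.09, adjusted p = 0.3, limma). miR-200c-3p was at 1125 and 1113 in WT and 799 and 650 in KO, a log2 of -0.63 (95% interval -1.53 to 0.26, adjusted p = 0.431). miR-200a-3p was at 563 and 516 in WT and 354 and 356 in KO, a log2 of -0.6 (95% interval -1.39 to 0.18, adjusted p = 0.371). For these 3 members both KO libraries were below both WT libraries, as they were for 35.5% of all rows tested.

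With edgeR on recovered reads all 3 were called at day 14, at adjusted p of 0.0219, 0.0352 and 0.0427, beside 17.8% of all rows, and a limma fit of the 4 day 14 libraries alone called the same 3 beside 14.8%. DESeq2 called miR-200b-3p alone (adjusted p = 0.0172) beside 13.1%. In the authors' deposited table miR-200b-3p had a log2 fold change of -0.7 and an adjusted p of 0.0241, while miR-200c-3p had -0.62 and 0.0821 and miR-200a-3p -0.59 and 0.127. There 5.69% of the 439 rows with an adjusted p at day 14 were under 0.05. For miR-200b-3p the log2 difference was -0.72 in limma, -0.69 in edgeR and -0.68 in DESeq2.

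Of the other members at day 14, 3 had log2 differences between -0.24 and 0.01, and for 2 both KO libraries were above both WT libraries. miR-141-3p was at 736 and 550 normalised reads in WT and 580 and 501 in KO, with overlap, a log2 of -0.24 (95% interval -1.07 to 0.6). miR-429-3p was at 1827 and 2001 in WT and 2009 and 2102 in KO, a log2 of 0.1 (95% interval -0.99 to 1.2) with both KO libraries above both WT libraries, as in 30.9% of all rows. miR-200a-5p was at 32.6 and 20.1 in WT and 40.1 and 39.2 in KO, also with both KO libraries above (log2 0.61, 95% interval -0.36 to 1.59), while its 3p arm had both KO libraries below. The log2 differences of miR-200b-5p and miR-141-5p were 0.01 and -0.07, with overlapping libraries. At this day the lower members of KO came from both clusters and both seeds.

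At day 7 all 8 members were lower in KO than in WT, by log2 -0.8 to -0.08 with a median of -0.4, beside 52% of all rows lower and a median of -0.02. Both KO libraries were below both WT libraries for 4 members, miR-200b-3p, miR-200b-5p, miR-200a-3p and miR-200c-3p, and for 21.8% of all rows. miR-200a-3p had the largest of these differences in the family, from 963 and 630 in WT to 522 and 383 in KO (log2 -0.8, SE 0.37, adjusted p = 0.755). At day 0 the family leaned the other way, with 6 of 8 members higher in KO and a median log2 of 0.13 beside 0.07 for all rows. There both KO libraries were above both WT libraries for miR-200b-3p, as for 18.7% of all rows (log2 0.64, 95% interval -0.15 to 1.44). For miR-141-5p both KO libraries were below both WT libraries, as for 16.1% of all rows (log2 -0.4, 95% interval -1.24 to 0.44).

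At day 4 no member separated the genotypes. Of all rows, 15.6% had both KO libraries above both WT libraries and 8.82% had both below. The log2 differences ran from -0.35 for miR-200b-5p to 0.09 for miR-429-3p, with -0.17 for miR-200b-3p, -0.29 for miR-200c-3p, 0.02 for miR-200a-3p and -0.01 for miR-141-3p. Averaged over the 4 days they ran from -0.35 for miR-141-5p (95% interval -0.78 to 0.07) to 0.22 for miR-429-3p (95% interval -0.33 to 0.77). The average was -0.2 for miR-200b-3p (95% interval -0.6 to 0.2) and -0.32 for miR-200a-3p (95% interval -0.72 to 0.07). The fit took libraries of a genotype on different days as independent, though the same replicate numbers recur on every day. Intervals and p-values averaged over days may therefore be too narrow and too small.

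**Figure D5:**
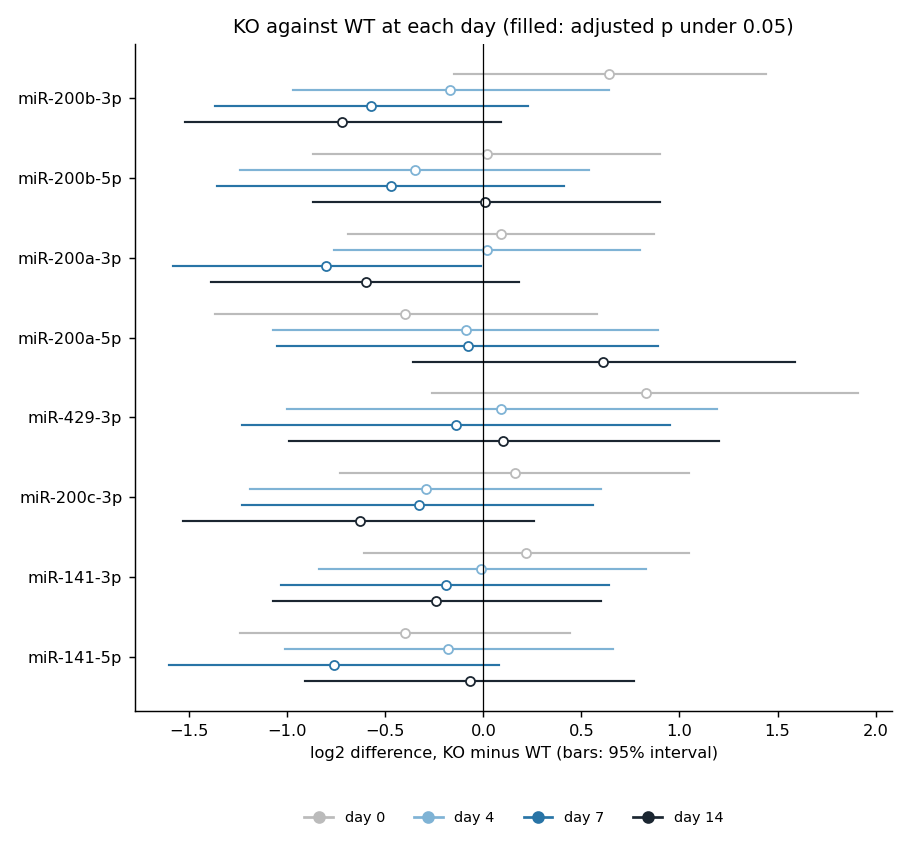
Log2 difference of KO from WT (horizontal axis) for each member at days 0, 4, 7 and 14 from light to dark, with points for the estimate and bars for the 95% interval (limma, 8 groups of n = 2). No point is filled, since no adjusted p was under 0.05, and miR-200b-3p moves from 0.64 at day 0 to -0.72 at day 14.

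The change of miR-200b-3p since day 0 was the member difference between genotypes nearest to a call. It was 1.36 lower on the log2 scale in KO than in WT at day 14 (interaction -1.36, 95% interval -2.5 to -0.23, adjusted p = 0.212, limma), and -1.22 at day 7 (adjusted p = 0.658). No member and 0% of rows passed an interaction test at day 4, 7 or 14 in limma. An unadjusted limma p under 0.05 was reached by 0, 1 and 1 members, respectively, beside 4 of 312, 15 of 297 and 51 of 279 rows. edgeR called 0 members in each, and DESeq2 called 1, miR-200b-3p at day 14 (log2 -1.35, adjusted p = 0.0267) beside 12.6% of rows. Without WT day 0 replicate 2, miR-429-3p was called at day 7 (log2 -2.09) and day 14 (log2 -1.84).

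miRNAs known from the same biology were counted for comparison. Of 9 epithelial-state miRNAs outside the family, 6 were tested between days 0 and 14. Over those days limma called 13.6% of all rows in WT, and 28.3% in KO with 17.2% as lower. In KO 1 fell, miR-30a-5p (log2 -1.39, adjusted p = 0.00849, limma), a member of a family abundant in airway epithelium, and in WT its log2 was -0.71 (adjusted p = 0.184). In WT 2 rose, miR-34c-5p (log2 1.77, adjusted p = 0.000211) and miR-34b-3p (log2 1.21, adjusted p = 0.016), which are also multiciliated markers. The median log2 over the 6 was 0.31 in WT and -0.42 in KO. miR-205-5p, which shares ZEB1 and ZEB2 as targets with the family, had a log2 of -1.02 in WT (adjusted p = 0.124) and -0.95 in KO (adjusted p = 0.111).

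Of 8 miRNAs linked to epithelial-mesenchymal transition, 7 had a row and 5 were tested. In KO from day 0 to day 14, 2 fell, beside 17.2% of all rows called as lower. They were miR-221-3p (log2 -1.59, adjusted p = 0.00437, limma) and miR-222-3p (log2 -0.95, adjusted p = 0.0456), a pair from 1 transcript. miR-21a-5p, often raised in mesenchymal change, had a log2 of -0.93 in WT (adjusted p = 0.0755) and -0.87 in KO (adjusted p = 0.0677). The median over the 5 was -0.71 in WT and -0.87 in KO, beside -0.15 and -0.02 for all rows. The summed level of this list was 1468 to 1919 in WT and 2082 to 2186 in KO at day 14. Of that sum, miR-21a-5p alone gave 771.8 to 1121.5 in WT and 1293.6 to 1403.8 in KO. Between genotypes at day 14 limma called 0 of the 5 tested, where 3.62% of all rows were called. Their median log2 was -0.06. The part of this list in the family's values was not tested.

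Between genotypes at day 14, limma called 3 of 6 tested multiciliated markers lower in KO, where 3.62% of all rows were called in either direction. miR-34c-5p was lower by a log2 of -1.63 (adjusted p = 0.00404), miR-34b-3p by -1.81 (adjusted p = 0.00681) and miR-34c-3p, named after its values were seen, by -2.34 (adjusted p = 0.00775). miR-34b-5p, likewise named after its values were seen, had a log2 of -1.68 without a call (95% interval -2.82 to -0.54, adjusted p = 0.107, limma). miR-449c-5p, the most abundant marker of this list, had a log2 of -0.31 (95% interval -1.15 to 0.53, adjusted p = 0.684) and miR-449a-5p -0.19 (95% interval -1.43 to 1.06, adjusted p = 0.888). The summed multiciliated markers were at 12888 to 14820 in WT and 9351 to 9648 in KO at day 14, which stands beside the lower miR-200b-3p, miR-200c-3p and miR-200a-3p of the same libraries. The part of these markers in the family's values was not tested.

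The small RNAs whose log2 level was most like the mean of a cluster's 3p arms over the 16 libraries were sought among 264 other rows that passed the filter on every day. For chromosome 4 they were miR-10a-5p (r = 0.85), miR-99a-5p (r = 0.83) and miR-10a-3p (r = 0.76). For chromosome 6 they were miR-10a-5p (r = 0.74), miR-26b-5p (r = 0.72) and miR-27b-3p (r = 0.69). The median r over the 264 rows was -0.02 and -0.01. miR-10a-5p thus led for both clusters, and the points share day and library.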

How the data were processed

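Small RNA was sequenced from 16 libraries; per the labels' protocols, a TruSeq RNA kit was used on column-purified RNA. Build mm10 and DESeq2 are named in the submitters' processing notes, and the aligner, the annotation and the treatment of reads matching several miRNAs are not given there. What the deposited file calls read counts is a signal normalised by the authors within each day. Dividing each library by its smallest step gave whole reads for 100% of values (tolerance 0.0055), a step less certain at days 7 and 14, where low rows are blank, so the edgeR and DESeq2 calls of those days share that limit. The authors' deposited log2 fold changes and adjusted p-values are named where used. 5 predicted rows identical to a named miRNA were left out.

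Days were put on 1 scale by log2 shifts of 0.247, 0.181, -0.392 and -0.084 at days 0, 4, 7 and 14, from the 287 rows with a value in every library. Comparisons within a day do not depend on them. The test was limma 3.58.1 (R 4.3.3, variance trend) fitted to log2(value + 1) of 16 libraries in 8 groups, for rows that reached 10 in 2 or more of a compared day's 4 libraries. Adjusted p are Benjamini-Hochberg values over all rows tested, with a threshold of 0.05. Alternatives were edgeR 4.0.16 and DESeq2 1.42.0 on recovered reads, other scalings, pseudocounts and filters, a replicate block, the compared groups alone, and each library left out.

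The members, marker lists and tests were chosen with earlier results of these data known. The naming rule takes all 8 members, the 3 rows most like each cluster and up to 4 of the most abundant of each list; members that the results do not turn on are given by range. Numbers 2 and 3 recur in every group: deviations of same-numbered libraries correlated over 272 rows at r = 0.11 to 0.27 within WT (6 pairs), 0.3 to 0.47 within KO (6 pairs) and -0.25 to 0.17 between genotypes (16 pairs), so the numbers were taken to pair libraries within a genotype. The fit of 8 groups left this pairing out, and only the replicate block used it. Replicates correlated at r = 0.941 to 0.985 across rows. Reads carried no molecular identifiers and are not independent molecules. In the main fit, limma p-values rest on a spread between libraries pooled over the 8 groups of 2 and drawn towards a trend over rows. Genes overlapping the hairpins are from the GENCODE annotation of the same build.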

Additional observations from a re-analysis of the deposited data

Results flagged for a closer look

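A row outside the family gave reads at the edge of the miR-141 hairpin. It is a predicted small RNA of 18 bases at chr6:124717981-124717998 on the minus strand, directly beside miR-141-5p with 0 bases between them and with 5 of its bases inside the annotated hairpin. It is given here because no result above names it, though it is among the rows tested. It had reads in all 16 libraries, 16 in the lowest and 130 in the highest, above the 3 reads that a count of 0 allows. It stood to miR-141-5p at 0.81 to 3.23 (median 1.6) and was above it in 12 libraries. It rose in KO from day 0 to day 7 (log2 1.39, adjusted p = 0.0177) and to day 14 (log2 1.67, adjusted p = 0.00275, limma), while miR-141-5p was not called. In WT its log2 at day 14 was 0.97 (adjusted p = 0.0692).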

How the results depend on the processing

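Counts of the 8 members past the threshold moved as follows. For KO against WT at day 14 (0 in limma with all libraries), the groups alone gave 3, edgeR 3 and DESeq2 1. For WT against day 0, the replicate block gave 1 at day 4, 2 at day 7 and 2 at day 14, library totals gave 0 at day 7 and 3 at day 14, the groups alone gave 0 at day 7, and DESeq2 gave 2 at day 7 and 1 at day 14. For KO against day 0, library totals gave 1 at day 7, the block gave 2 at day 7, and at day 14 TMM factors over miRNAs gave 0 and edgeR 1. DESeq2 gave 1 for the interaction at day 14. The block changed no other member count. Among values called in either fit, 1 changed sign: miR-200b-3p in WT at day 14 under library totals, -0.94 (adjusted p = 0.043), a scaling that moved the median of all rows from -0.15 to -1.09.

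Leaving out 1 library, the count ranged from 0 to 1 for KO against WT at day 0, 0 to 1 for WT at day 4, 0 to 3 for WT at day 7, 0 to 2 for WT at day 14, 0 to 1 for KO at day 14, and 0 to 1 for the interactions at days 7 and 14. A group left with 1 library was assumed to vary like the others. Of 640 single-member values so computed 99 changed sign, none of a called value; of 1197 under the other alternatives 73 did, 1 of a value called in either fit, as above. The cause of these moves was not tested.

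Counts over all rows moved by more than 1.5 times in several settings. For KO against WT at day 14, limma called 11 (5 higher), library totals 22 (18 higher), the block 25, the groups alone 45, edgeR 54 and DESeq2 36. At day 7 limma called 2 and TMM factors, library totals, the groups alone and edgeR 0. Averaged over days it called 7 (3 higher), library totals 11 (7 higher), the block 18 and DESeq2 13. For WT against day 0, limma, the block, the groups alone and library totals called 8, 16, 3 and 21 at day 4, 21, 42, 8 and 116 at day 7, and 38, 63, 14 and 137 at day 14, where 16 of 38 and 4 of 137 were higher. For KO these were 11, 17, 2 and 13 at day 4, 30, 50, 14 and 59 at day 7, and 79, 100, 99 and 96 at day 14, where 31 of 79 were higher, 19 of 96 under library totals and 50 of 70 with TMM factors over miRNAs. Leaving out 1 library, KO against WT at day 14 had 0 to 7 calls, WT 4 to 19 at day 4, 8 to 30 at day 7 and 19 to 42 at day 14, and KO 4 to 16, 8 to 25 and 28 to 54 on those days. KO against WT at day 0 had 0 to 9, and averaged over days 4 to 14. For the interaction at day 14, limma called 0, leaving out 1 library 0 to 12, the block 14, library totals 14 and DESeq2 14. The averaged comparison was not run on groups alone. With 2 libraries a group, the 95% interval of KO against WT at day 14 ran from -1.52 to 0.09 for miR-200b-3p, and the arms miR-200a-5p and miR-141-5p rest on 11 to 90 reads.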
